A study of Mus musculus with 8 samples.

Results

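Of the 27554 genes in the count table, 9 genes of FGF and HGF signalling are described here: the ligands Hgf and Fgf2, the receptors Met, Fgfr1 and Fgfr4, and the feedback inhibitors Spry1, Spry2, Spry4 and Spred1. They were taken by gene symbol as a list, and the rule has no threshold on a measured value. All 9 passed the filter on low counts, Hgf through male libraries alone (0 of 4 female and 4 of 4 male libraries had 10 counts or more). Polyadenylated RNA was sequenced from muscle stem cells sorted from the hindlimb muscles of C57BL/6NTac mice, in which every group carried Pax7tm3955(T2A-ZsGreen)Tac, a ZsGreen reporter of Pax7, and Myf5tm3956(T2A-E2Crimson)Tac, an E2Crimson reporter of Myf5. Myf5High and Myf5Low cells are Pax7-positive cells gated as brightest and dimmest for E2Crimson, so a fraction is defined by reporter brightness and not by the transcript itself. The 4 groups were female Myf5High, female Myf5Low, male Myf5High and male Myf5Low, and the labels name no treatment. Each group had 2 libraries and each library came from a pool of 4 mice, whose age the labels do not give. Within each sex, a Myf5High and a Myf5Low library share a pool number, which gives 4 such pairs of libraries. A pool number below is always meant within a sex. That the libraries of a pair come from the same mice is inferred from these numbers, and the labels do not state it.

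Fibroblast growth factors and hepatocyte growth factor are secreted ligands that activate receptor tyrosine kinases and, through adaptors and RAS, the ERK kinase cascade. In adult muscle, HGF acting on its receptor Met is a classical signal for resting stem cells to leave quiescence, and FGF2 acting on Fgfr1 and Fgfr4 promotes the proliferation of myogenic cells. Sprouty and Spred proteins are induced by or act on this cascade and restrain it, and Spry1 is known for its role in the return of muscle stem cells to quiescence.

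Gene totals were 3140361 to 4238427 counts per library, and 3 counts, taken as the smallest detectable level, correspond to 0.672 to 0.986 normalised CPM (counts per 1000000 after scaling). The sorted identity was visible in Pax7, at 1001 to 1498 CPM in every library. Myf5 averaged 89.4 ± 40.7 CPM over the Myf5High libraries and 36.4 ± 11.6 CPM over the Myf5Low ones (n = 4 each, ± SD), with a log2 fold change of 1.19 (standard error 0.265; adjusted p 0.0284 in edgeR). The libraries of the fractions overlapped in Myf5. The split was weaker in males, at 73.7 and 39.5 CPM in Myf5High and 41.9 and 28.7 CPM in Myf5Low (log2 fold change 0.69; adjusted p 0.808 in edgeR), than in females (1.70; adjusted p 0.0649), and the difference between the sexes was not called (log2 interaction 1.02; edgeR adjusted p 1.0). The male comparisons of the fractions rest on this split. Markers of other cell types were also present, with summed levels of 329 to 1066 CPM for 10 endothelial genes, 894 to 2132 CPM for 10 fibro-adipogenic genes, 651 to 1184 CPM for 10 glial genes, 423 to 811 CPM for 10 mural genes and 22.1 to 97.4 CPM for 10 immune genes. In bulk RNA, fewer cells of a type and less RNA per cell cannot be told apart.

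The sequences just upstream of 3 members are shown because the results turn on them: Spry2 is the member that passed the test between the sexes, Spry1 is its close relative that did not, and Hgf is the member nearest the detection limit. Each is the 250 bases before the RefSeq transcript start (GRCm38.p6), written 5′ to 3′ on the gene's strand. The windows are chr14:105896820-105897069 on the minus strand for Spry2, chr3:37639697-37639946 on the plus strand for Spry1 and chr5:16553245-16553494 on the plus strand for the first of the Hgf starts. Capitals mark matches to the E-box letters CANNTG, a core bound by many basic helix-loop-helix factors including the Myf5 family.
Spry2: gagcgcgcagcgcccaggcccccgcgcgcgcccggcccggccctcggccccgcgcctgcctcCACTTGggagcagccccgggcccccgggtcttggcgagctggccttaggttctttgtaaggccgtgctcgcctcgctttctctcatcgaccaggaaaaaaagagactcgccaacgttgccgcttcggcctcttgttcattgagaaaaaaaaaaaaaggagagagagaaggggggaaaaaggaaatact
Spry1: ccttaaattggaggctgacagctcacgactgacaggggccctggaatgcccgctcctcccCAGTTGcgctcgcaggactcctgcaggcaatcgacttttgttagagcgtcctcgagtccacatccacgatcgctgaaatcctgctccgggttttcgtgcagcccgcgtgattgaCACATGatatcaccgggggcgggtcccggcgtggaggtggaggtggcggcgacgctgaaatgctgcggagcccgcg
Hgf: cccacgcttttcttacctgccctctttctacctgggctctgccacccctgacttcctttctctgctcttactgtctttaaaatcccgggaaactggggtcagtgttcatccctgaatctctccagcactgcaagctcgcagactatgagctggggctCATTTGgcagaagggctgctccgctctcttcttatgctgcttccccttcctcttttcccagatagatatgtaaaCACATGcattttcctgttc
The Spry2 window held 1 E-box match, the Spry1 window 2 and the Hgf window 2, where 66.2% of 32851 promoter windows of this length held at least 1. Of the 7 members with a RefSeq window, 5 had an E-box match in at least 1 window (Spry1, Spry2, Fgfr4, Met and Hgf) and 2 (Spred1 and Fgf2) had none. The AP-1 letters TGANTCA were found in Met alone, against 6.75% of all windows. The CRE letters TGACGTCA and the ETS letters CCGGAAGT were found in 0 of the 7, against 1.55% and 2.88% of all windows. Both strands were searched, and a match describes letters and not binding.

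Levels of the 9 genes were first set in order per exonic kilobase, the scale on which genes of different length can be compared. Fgfr4, an FGF receptor enriched in myogenic cells, was highest at 135 ± 30.9 CPM per kilobase (SD, n = 8). Fgfr1, the other main FGF receptor of these cells, followed at 58.2 ± 9.92 CPM per kilobase, and its libraries did not overlap with those of Fgfr4. The paralogs Spry2 and Spry1 had 40.8 ± 13.2 and 37.0 ± 7.46 CPM per kilobase and overlapped with each other. Spry2 also overlapped with Fgfr1.

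A lower tier began with Spred1, an inhibitor that acts on RAS and RAF, at 8.41 ± 1.54 CPM per kilobase (SD, n = 8). Met, the HGF receptor, had 4.86 ± 1.15 CPM per kilobase and overlapped with Spred1. The ranges of Spry4 (1.53 ± 0.826), Fgf2 (1.08 ± 0.635) and Hgf (0.464 ± 0.486 CPM per kilobase) overlapped from each to the next. Receptors and the inhibitors Spry1, Spry2 and Spred1 were thus well above the detection limit, whereas both ligands lay within a few counts of it in some libraries. The remaining signalling FGF receptors, looked up after the levels of the members were seen, were also low, with Fgfr3 at 0.973 ± 0.634 and Fgfr2 at 0.277 ± 0.273 CPM per kilobase.

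**Figure D1:**
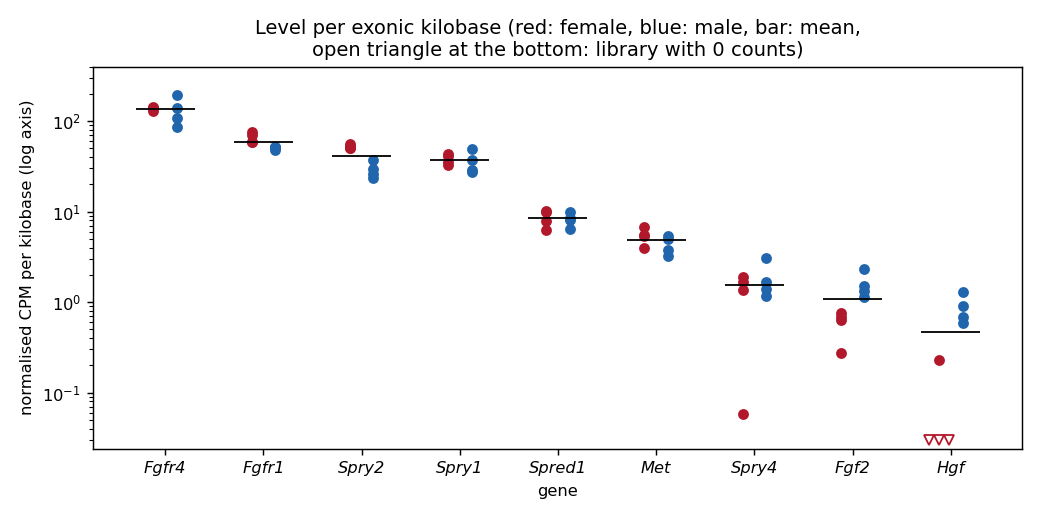
Level of each of the 9 genes per exonic kilobase on a log axis, with 1 point per library (red for female, blue for male) and a bar at the mean of 8 libraries. Fgfr4 stood highest at a mean of 135 CPM per kilobase, and 3 female libraries had 0 counts of Hgf (open triangles).

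Among the ligands, Hgf (ENSMUSG00000028864, chromosome 5, 16553495 to 16620152, GRCm38) was found almost only in male libraries. The male libraries had 27 and 13 counts in Myf5High and 22 and 39 counts in Myf5Low, that is 6.48, 4.27, 4.93 and 9.32 CPM. The female libraries had 0 and 0 counts in Myf5High and 6 and 0 counts in Myf5Low, the last pair at 1.65 and 0 CPM. Every male library was above every female library, and only 1 female library held any Hgf read.

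Summed over libraries, Hgf was 15.8-fold higher in males (101 counts against 6, exact 95% interval 7.03 to 44.2, counting error only). Within Myf5High, where both female libraries were at 0, it was at least 6.2-fold higher in males, taking 3 counts per library as the floor. Because Hgf entered the test only through the male libraries, where it is high, its test between the sexes is given as a description. The edgeR log2 fold change for female against male was -5.24 (SE 1.32, adjusted p 0.0537), and the fitted size depends on how 0 counts are handled. With the libraries of each pool number summed it was -3.88 (edgeR adjusted p 0.0942), and without single libraries it was -7.60 to -4.72, where -7.60 is the fit without female Myf5Low replicate 1, with all female libraries at 0, and is no measure of size. It passed the threshold by DESeq2 (adjusted p 0.00188) and without a filter on low counts (edgeR adjusted p 0.00195). In edgeR it also passed without female Myf5Low replicate 1, without male Myf5High replicate 1 and without male Myf5High replicate 2 (adjusted p 0.0272, 0.042 and 0.0349), and over all 8 such fits the adjusted p was 0.0272 to 0.164.

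Connective tissue cells are known to make Hgf, and marker levels of other cell types are given beside it. The fibro-adipogenic markers had summed levels of 894 to 1328 CPM in females and 1003 to 2132 CPM in males, which overlapped. Of 9 such genes tested, 8 had a lower estimate in females and 0 were called. Endothelial markers summed to 329 to 572 CPM in females and 595 to 1066 CPM in males, which did not overlap. Their part in the Hgf difference was not tested. Between the fractions Hgf overlapped (log2 fold change -2.54, standard error 1.35; adjusted p 0.613 in edgeR). That value rests on the 6 counts of female Myf5Low replicate 1, without which every female library is at 0 and no female estimate can be had. In males alone it was -0.40 (standard error 1.26; adjusted p 1.0 in edgeR). Of the exonic bases of Hgf, 6.74% are shared with Gm43489 on the same strand.

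Fgf2 (ENSMUSG00000037225, chromosome 3, 37348346 to 37410108), a secreted FGF that muscle cells and their surroundings can supply, was also low and also lower in every female library. It had 5.17 and 4.33 CPM in Myf5High females, 4.67 and 1.88 in Myf5Low females, 15.6 and 10.2 in Myf5High males, and 8.96 and 7.65 in Myf5Low males. The highest female library was therefore below the lowest male one. The log2 fold change for female against male was -1.39 (SE 0.517) and did not pass (edgeR adjusted p 0.217). Fgf2 shares 9.44% of its exonic bases with Nudt6 on the opposite strand and 3.76% with Gm43439 on the same strand. With no strand setting given, how reads in the bases shared with Nudt6 were assigned or left out is not known. Nudt6 overlapped between the sexes, at 1.62 to 14.3 CPM in females and 3.29 to 13.7 CPM in males.

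Among the receptors, Fgfr1 (ENSMUSG00000031565, chromosome 8, 25513654 to 25575718) was higher in every female library. It had 749 and 575 CPM in Myf5High females and 691 and 579 CPM in Myf5Low females. The male values lay close together, at 475 and 513 CPM in Myf5High and 507 and 506 CPM in Myf5Low. The sexes did not overlap, but the difference was small, with a log2 fold change of 0.38 (SE 0.172), and was not called (edgeR adjusted p 0.333). Between the fractions Fgfr1 gave a log2 fold change of 0.01 (standard error 0.172; adjusted p 0.995 in edgeR), with a sign that turned negative in 4 alternative fits.

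Fgfr4 (ENSMUSG00000005320, chromosome 13, 55152640 to 55168759) was even in females and split in males. Female libraries had 510 and 492 CPM in Myf5High and 461 and 494 CPM in Myf5Low. Male libraries had 382 and 302 CPM in Myf5High and 682 and 489 CPM in Myf5Low. Male Myf5High was thus below all other libraries of this receptor, and the female fractions overlapped.

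The male log2 fold change of Fgfr4 for Myf5High against Myf5Low was -0.78 (SE 0.252; unadjusted p 0.00638, edgeR adjusted p 0.4), and the female one was 0.07 (standard error 0.25; adjusted p 0.985 in edgeR). The test of their difference gave a log2 interaction of 0.84 (SE 0.355; edgeR unadjusted p 0.0285, adjusted p 1.0), so neither the male difference nor the difference between sexes was called. Without male Myf5Low replicate 1, the highest library, the male value was -0.51 (edgeR adjusted p 1.0). Over both sexes the log2 fold change was -0.35 (standard error 0.177, adjusted p 0.566 in edgeR), with -0.47 to -0.22 when single libraries were left out.

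Met (ENSMUSG00000009376, chromosome 6, 17463800 to 17573980) was lower in Myf5High than in Myf5Low in each of the 4 pairs of libraries with the same pool number, by a small margin. The pairs were 41.1 against 52.2 and 30.6 against 41.9 CPM in females, and 24.7 against 28.9 and 38.1 against 40.9 CPM in males. Over all libraries the fractions overlapped, and the log2 fold change of -0.27 (SE 0.255) was not called (edgeR adjusted p 0.862). When single libraries were left out, this value was -0.45 to -0.13. Spry4 and Fgf2 were higher in Myf5High in all 4 pairs, so 3 of 9 members had 1 direction in all pairs, where 16.3% of all genes tested did. Female and male levels of Met overlapped (41.4 ± 8.84 and 33.2 ± 7.6 CPM, SD, n = 4 each; edgeR adjusted p 0.63).

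**Figure D2:**
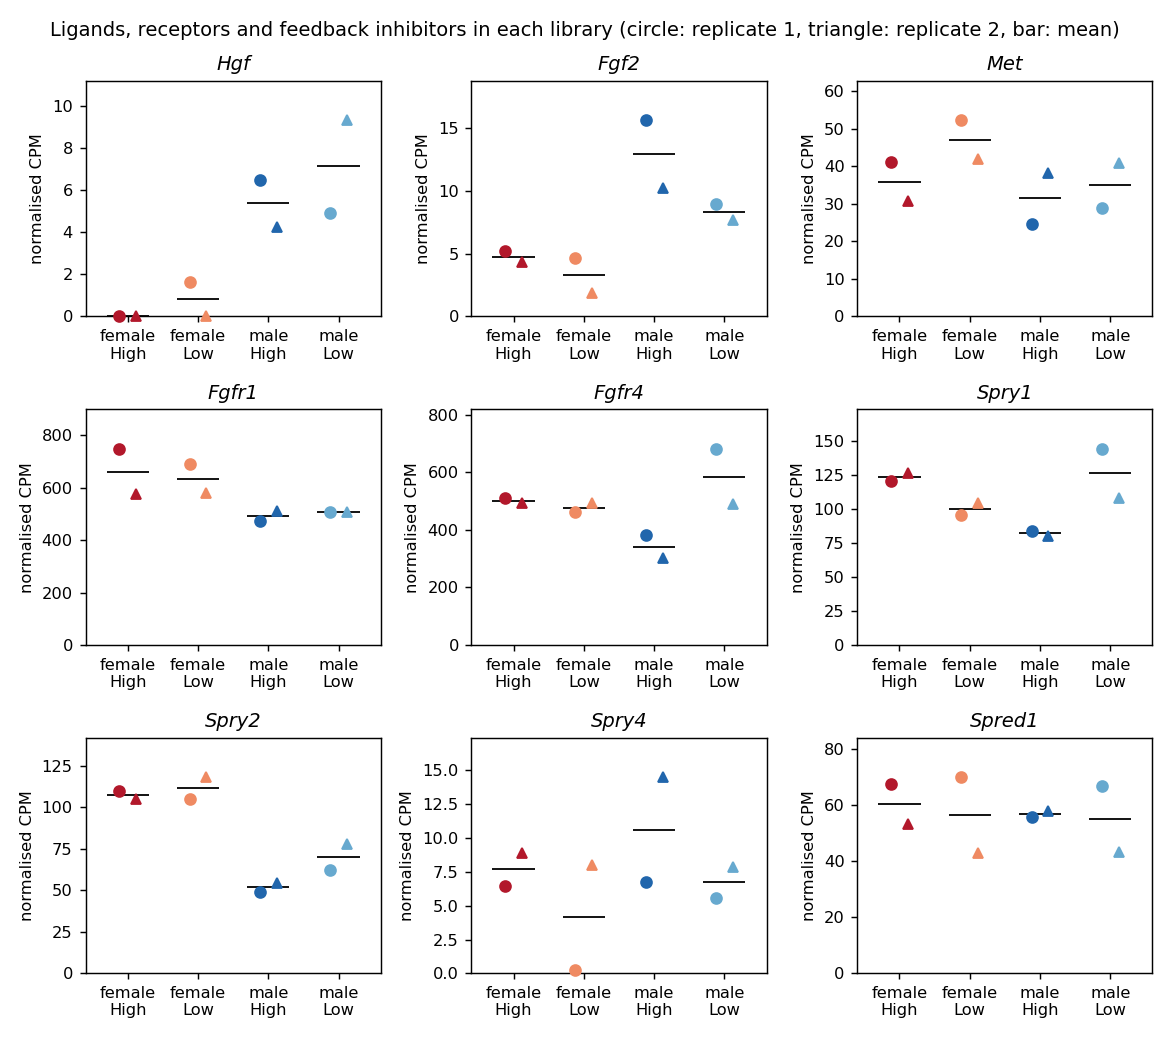
Normalised CPM of the 9 genes in each library by group, on linear axes from 0, with replicate 1 as a circle, replicate 2 as a triangle and the group mean as a bar. Spry2 was at 105 to 118 CPM in the female libraries and 49.2 to 77.6 CPM in the male ones.

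Among the feedback inhibitors, Spry2 (ENSMUSG00000022114, chromosome 14, 105891947 to 105896819), whose upstream window is printed above, was higher in females in both fractions. It had 110 and 105 CPM in Myf5High females, 105 and 118 in Myf5Low females, 49.2 and 54.2 in Myf5High males, and 62.1 and 77.6 in Myf5Low males. All female libraries lay above all male ones, and the female libraries lay close together. The female mean was 109 ± 5.99 CPM and the male mean 60.8 ± 12.4 CPM (n = 4 each, ± SD).

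Spry2 rose in females by a log2 fold change of 0.86 (standard error 0.194; adjusted p 0.0279 in edgeR). If libraries of 1 pool number share mice, the comparison rests on 2 pools per sex, and with those libraries summed it was 0.83 on the log2 scale (edgeR adjusted p 0.0549). Leaving out 1 library gave log2 fold changes of 0.78 to 0.95. The call was lost without female Myf5High replicate 1 or 2, female Myf5Low replicate 1 or 2, or male Myf5Low replicate 1 (edgeR adjusted p 0.151, 0.102, 0.0561, 0.119 and 0.145). It was also called by DESeq2 (adjusted p 0.0025). Between the fractions Spry2 overlapped, with a log2 fold change of -0.24 (standard error 0.193; adjusted p 0.821 in edgeR).

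Spry1 (ENSMUSG00000037211, chromosome 3, 37639947 to 37644598) had no common direction between the fractions, because the sexes went opposite ways. In females Myf5High was higher, at 120 and 126 CPM against 95.3 and 104 CPM in Myf5Low. In males Myf5High was lower, at 83.6 and 80.2 CPM against 144 and 108 CPM in Myf5Low. The 2 libraries of each fraction were separate within each sex, which also held for 39.1% of all genes tested in females and 33.1% in males.

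The female log2 fold change of Spry1 for Myf5High against Myf5Low was 0.31 (standard error 0.264; adjusted p 0.908 in edgeR) and the male one was -0.62 (standard error 0.265; adjusted p 0.663 in edgeR). Their difference was a log2 interaction of 0.93 (SE 0.373; edgeR unadjusted p 0.023, adjusted p 1.0). It was not called, and 0 of 11730 genes were called for the interaction (533 at an unadjusted p under 0.05; 2 by DESeq2). Without male Myf5Low replicate 1 the male log2 fold change was -0.39. Averaged over the sexes the value was -0.16 (standard error 0.186, adjusted p 0.909 in edgeR), with -0.25 to -0.05 when single libraries were left out. The sexes did not differ detectably in the mean level (log2 fold change 0.12, standard error 0.186, adjusted p 0.821 in edgeR). That log2 fold change was 0.03 to 0.23 when single libraries were left out. Spry1 shares 24.4% of its exonic bases with Gm42922 on the opposite strand. Without the strand setting, how reads in these bases were assigned or left out is not known.

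Spry4 (ENSMUSG00000024427) was detected at a low level, with 1 library apart. Female Myf5Low replicate 1 had 1 count, or 0.275 CPM, while its partner replicate had 34 counts, or 8.0 CPM. The remaining libraries had 6.47 and 8.91 CPM in Myf5High females, 6.72 and 14.5 in Myf5High males, and 5.6 and 7.88 in Myf5Low males. The fractions overlapped and the log2 fold change for Myf5High against Myf5Low was 0.76 (standard error 0.646; adjusted p 0.843 in edgeR), with 0.29 to 2.65 when single libraries were left out. Between the sexes it also overlapped (-0.56, standard error 0.645; adjusted p 0.756 in edgeR), with -2.46 to -0.11 when single libraries were left out.

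Spred1 (ENSMUSG00000027351, chromosome 2, 117121374 to 117182279) varied more between replicates than between groups. It had 67.3 and 53.2 CPM in Myf5High females, 69.8 and 43.0 in Myf5Low females, 55.5 and 57.9 in Myf5High males, and 66.5 and 43.2 in Myf5Low males. No group stood apart. Its log2 fold change was 0.07 (standard error 0.235; adjusted p 0.978 in edgeR) between the fractions and 0.06 (standard error 0.235; adjusted p 0.945 in edgeR) between the sexes.

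Over the list, calls were few in each comparison. Between Myf5High and Myf5Low 0 of 9 members were called by edgeR, 0 had an unadjusted p under 0.05 and 0 were called by DESeq2, where 1.2% of 11730 genes tested were called by edgeR and 9.36% had an unadjusted p under 0.05. Between the sexes 1 of 9 was called and 4 of 9 had an unadjusted p under 0.05, where 1.65% of genes were called (0.733% higher in females) and 13.9% had an unadjusted p under 0.05. Of the 8 members that did not enter through 1 sex alone, 1 was called and 3 had an unadjusted p under 0.05. Within females, within males and for the interaction 0 of 9 were called by edgeR, where 0.332%, 0.171% and 0% of genes were, and 0, 2 and 2 members had an unadjusted p under 0.05 (7.36%, 6.67% and 4.54% of all genes). DESeq2 called 0 members in these 3. With 1 call, the count is too small to read against that share.

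The libraries of the sexes did not overlap in 4 of 9 members, against 7.08% of all genes tested. These were Spry2 and Fgfr1, higher in females, and Fgf2 and Hgf, higher in males, and without Hgf it was 3 of 8. The libraries of the fractions did not overlap in 0 of 9, against 4.58% of all genes. The median log2 fold change of the members was -0.16 between the fractions and 0.12 between the sexes, against -0.02 over all genes tested in both comparisons.

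**Figure D3:**
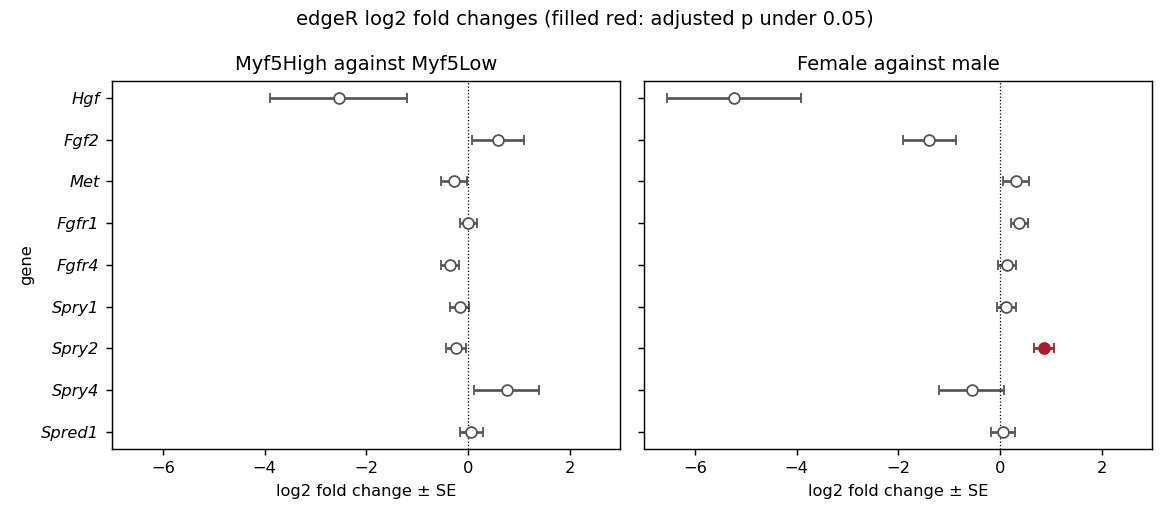
Log2 fold changes of the 9 genes with their standard errors from the edgeR fit over 8 libraries, for Myf5High against Myf5Low (left) and female against male (right). Spry2 between the sexes, at 0.86, is the filled point that passed an adjusted p of 0.05, and Hgf has the widest error.

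The rest of the pathway was read from 6 lists with 96 distinct genes, of which 65 were tested and 1, Spry3, was not matched by symbol to the count table. Between the fractions 0 of the 65 were called by edgeR, where 1.2% of all genes were, and 12 had an unadjusted p under 0.05 (9.36% of all genes). Among those named here, DESeq2 called Il17rd and Ier3. Between the sexes edgeR called Dusp6 alone, a phosphatase that inactivates ERK, which was higher in females. That is 1.54% of the 65, where 1.65% of all genes were called (0.733% higher in females). Of the 65, 11 had an unadjusted p under 0.05 (13.9% of all genes). Of the uncalled genes named here, DESeq2 called Ier2 and Stat3 between the sexes. Within females, within males and for the interaction 0 were called by edgeR, where 0.332%, 0.171% and 0% of all genes were. In these, 10, 8 and 10 had an unadjusted p under 0.05 (7.36%, 6.67% and 4.54% of all genes).

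Of 21 further FGF ligand genes, 13 were at or under 3 counts in every library and 5 were tested, with 0 called by edgeR in either comparison. Of 14 receptors and co-receptors (syndecans, glypicans and Klotho genes among them) 12 were tested and 0 were called by edgeR in either. The Klotho co-receptor genes Kl and Klb were at or under 3 counts throughout. Of 22 adaptors and RAS-ERK kinases 21 were tested and 0 were called by edgeR, with a median log2 fold change of 0.03 between the fractions and -0.03 between the sexes. Stat3 of this list, a transcription factor downstream of many receptors, was at 357 and 179 CPM in female and male Myf5High and at 232 and 229 CPM in female and male Myf5Low (means, n = 2 each). Its log2 fold change for female against male was 0.51 (edgeR adjusted p 0.152), and DESeq2 called it (adjusted p 0.0497).

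The list of further feedback inhibitors had 12 tested genes, with 1 called higher in females and 0 lower. Dusp6 had 51.1 and 48.9 CPM in Myf5High females, 24.7 and 64.0 in Myf5Low females, 8.89 and 8.22 in Myf5High males, and 24.9 and 30.8 in Myf5Low males. For Myf5High against Myf5Low its log2 fold change was -1.70 in males (edgeR adjusted p 0.187) and 0.17 in females (edgeR adjusted p 0.974). The log2 interaction was 1.87 (edgeR unadjusted p 0.00585), and none of these was called. Dusp6 was lowest in Myf5High males, and 1 female library lay within the male range. It rose in females by a log2 fold change of 1.61 (standard error 0.302; adjusted p 0.00883 in edgeR), and the call was lost without female Myf5Low replicate 2 (1.18, edgeR adjusted p 0.0782).

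Il17rd, which encodes the FGF receptor antagonist Sef, had 23.3, 20.6, 19.0 and 24.7 CPM in the Myf5High libraries and 15.4, 10.3, 2.91 and 8.12 CPM in the Myf5Low libraries. The fractions did not overlap. The log2 fold change was 1.38 (SE 0.374) and was not called by edgeR (adjusted p 0.102), while DESeq2 gave an adjusted p of 0.0471, edgeR without a filter gave 0.026, and without male Myf5Low replicate 2 edgeR gave 0.0399. It passed in 1 of the 8 fits without 1 library (log2 fold changes of 1.10 to 1.83, edgeR adjusted p 0.0399 to 0.393).

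Of 12 genes of HGF activation and related proteins, 4 were tested and 0 were called by edgeR in either comparison. Plau, the urokinase that can activate HGF, averaged 55.5 CPM in Myf5High females, against 22.4 CPM in Myf5Low females, 19.8 CPM in Myf5High males and 20.5 CPM in Myf5Low males (n = 2 each). The sexes overlapped, and the log2 fold change for female against male was 0.81 (edgeR adjusted p 0.157).

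Of 13 known ERK target genes 11 were tested and 0 were called by edgeR in either comparison. The immediate early gene Ier3 came closest between the fractions, at 663 ± 208 CPM over the Myf5High and 324 ± 98.5 CPM over the Myf5Low libraries (n = 4 each, ± SD). Its log2 fold change was 1.03 (standard error 0.248, adjusted p 0.0505 in edgeR). With the pool as a block in the fit, Ier3 was at 1.01 and was called (edgeR adjusted p 0.00879). It was called by DESeq2 (adjusted p 0.00528), by edgeR without a filter (adjusted p 2.11e-05) and by edgeR without male Myf5High replicate 1 or male Myf5Low replicate 2 (adjusted p 0.00146 and 0.00823). The other 6 of 8 fits without 1 library did not pass (adjusted p up to 0.208 in edgeR), and without male Myf5High replicate 2 it was 0.67 on the log2 scale (edgeR adjusted p 0.126). Maff, a small basic leucine zipper factor, was higher in Myf5High in 4 of 4 pairs, at 59.4 ± 15.2 against 33.7 ± 12.5 CPM (n = 4 each, ± SD), and the fractions overlapped. Its log2 fold change was 0.86 (standard error 0.251; adjusted p 0.139 in edgeR), and it was called without a filter and without male Myf5High replicate 1 (edgeR adjusted p 0.0466 and 0.0267; 0.0267 to 0.5 over the 8 fits without 1 library). The list of 12 dissociation response genes shares Fos, Egr1 and Ier2 with the ERK target genes. Of these 12 dissociation response genes, 11 had a higher estimate in Myf5High, and 0 were called by edgeR. Their median log2 fold change was 0.35, against -0.02 over all genes. Of 12 muscle stem cell markers, a list that holds the member Fgfr4 and the co-receptor gene Sdc4, 8 were higher. Of the 12, 3 were called, Myf5 among them, where 1.2% of all genes were called. Of 10 myogenic commitment markers 9 were lower, with Myog and Mymk called. Within females 10 of 10 were lower in Myf5High (median log2 fold change -2.47), and within males 5 of 10 were (-0.12). Myog and Mymk were called lower in Myf5High within each sex, and 0 of the 10 were called for the interaction. Estimates were also lower in Myf5High for 6 of 7 immune markers tested (C1qa called), 9 of 10 endothelial (0 called), 7 of 10 mural (Acta2 called) and 6 of 8 glial markers (0 called). The summed glial level went the other way, at 892 to 1184 CPM in Myf5High and 651 to 920 CPM in Myf5Low, which overlapped. Of 9 fibro-adipogenic markers tested 6 were higher, with Dpt called, and their summed levels did not overlap, at 1159 to 2132 CPM in Myf5High and 894 to 1117 CPM in Myf5Low. The part of these lists in the Ier3, Maff and Il17rd values was not tested. Ier2, another immediate early gene, was at 205 ± 63.4 CPM in females and 126 ± 3.06 CPM in males with no overlap (log2 fold change 0.66, edgeR adjusted p 0.0647). It was called by DESeq2 (adjusted p 0.0116) and by edgeR without a filter and with the filter at a mean of 50 counts (adjusted p 0.043 and 0.0423), and in 0 of the 8 edgeR fits without 1 library (adjusted p 0.0547 to 0.378).

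Some genes known to respond to tissue dissociation were higher in females, as Spry2 and Dusp6 were. Of 12 such genes, 3 were called higher in females, where 0.733% of all genes were: Btg2 (log2 fold change 0.91, standard error 0.173; adjusted p 0.0105 in edgeR), Dusp1 (0.98, SE 0.189; adjusted p 0.0109) and Nr4a1 (1.47, SE 0.287; adjusted p 0.0115). These 3 calls treat the 4 libraries of each sex as separate, and they were not followed through the alternative fits. Of the 12, 8 had a higher estimate in females and 4 a lower one. Their summed level overlapped between the sexes, at 18332 to 34090 CPM in females and 19014 to 37613 CPM in males. Of all 11730 genes tested, 194 (1.65%) were called between the sexes in either direction, 86 of them higher in females. Of 10 endothelial markers, 10 had an estimate below 0 and 1 was called lower in females (Egfl7). Of 10 myogenic commitment markers, 6 had an estimate below 0 and 2 were called lower in females (Myh3 and Mef2c), with summed levels of 159 to 1045 CPM in females and 200 to 804 CPM in males. The part of these lists in the Spry2 and Dusp6 differences was not tested.

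**Figure D4:**
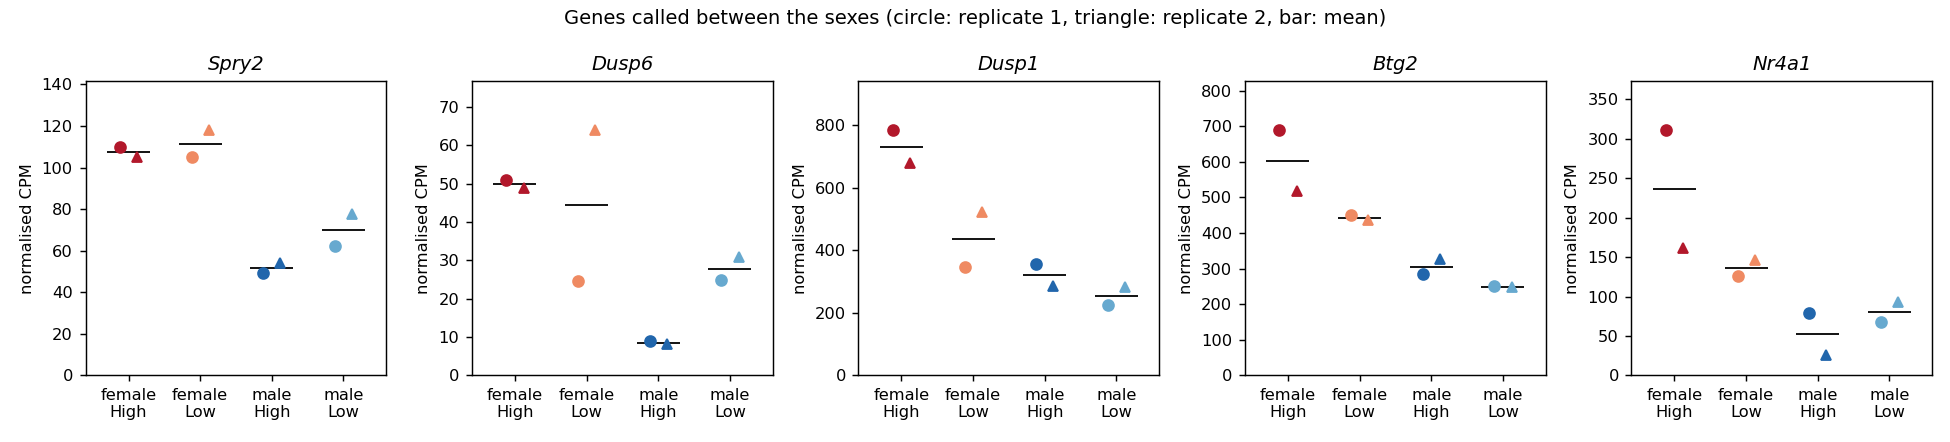
Normalised CPM per library of Spry2 and Dusp6 and of the dissociation response genes Dusp1, Btg2 and Nr4a1, on linear axes from 0, with replicate 1 as a circle, replicate 2 as a triangle and the group mean as a bar. All 5 genes were called higher in females by edgeR over the 8 libraries, and the Spry2 call was lost with summed pools (edgeR adjusted p 0.0549). In Spry2, Btg2 and Nr4a1 every female library lay above every male one.

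The genes with the profile most like that of each of 4 members were taken from 5800 genes averaging 20 CPM or more, by the root-mean-square distance between z-scored log2 CPM over the 8 libraries. For Spry2 they were Acly, Gfpt1 and Ppp5c, at distances of 0.20, 0.25 and 0.25. Acly, the ATP citrate lyase gene, had mean levels of 45.2 and 47.5 CPM in the female Myf5High and Myf5Low libraries and 23.6 and 33.2 CPM in the male fractions. For Spry1 they were Cd3eap, Csnk1g2 and Tmem256, at 0.19, 0.39 and 0.40. Cd3eap had the same crossing of the fractions, at 57.7 and 36.4 CPM in the female Myf5High and Myf5Low libraries and 23.8 and 56.2 CPM in the male fractions. For Fgfr4 they were Rhno1, Rbm17 and Unc93b1 (0.37, 0.39 and 0.39), and for Met they were Pcdh18, Mapkbp1 and Gpi1 (0.20, 0.44 and 0.45). The nearest of 5800 profiles over 8 libraries is close by selection, so these distances are descriptions.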

How the data were processed

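The authors deposited 1 table of raw counts for 8 libraries, as whole numbers for each Ensembl mouse gene. Counting with HTSeq and the genome build GRCm38 are named in the submitters' processing notes; the aligner, the annotation release and the strand setting are not given in the sources used here. Reads in no gene were 42.0% to 45.3% and ambiguous reads 0.248% to 0.296% of each library's tally, and both stayed out of library sizes. Symbols, positions and union exon lengths were taken from GENCODE M21 (GRCm38), which matched 27441 of 27554 genes, and promoter windows from RefSeq.

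Groups were taken from sample titles. Genes were kept by filterByExpr (minimum count 10, minimum total 15), leaving 11730, and scaled by TMM. In R 4.3.3, edgeR 4.0.16 fitted 4 group means to all 8 libraries, and contrasts were tested by quasi-likelihood F tests. Benjamini-Hochberg adjustment ran over all genes tested, and a gene with an adjusted p under 0.05 is described as called. A standard error is the absolute log2 fold change divided by the square root of F. The tests were tested on simulated data.

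The alternatives were RLE scaling, no filter, a filter at a mean of 50 counts, DESeq2 1.42.0, leaving out Gm42418 (20.1% to 28.8% of gene counts), the pool as a block, summed pools, fits of 1 sex and leaving out each library. The members, lists and rules were chosen with earlier results of these data known. 1 gene of the pathway lists is not reported here, and the list counts leave it out. Named were all members, pathway list genes called in any of 5 comparisons, the 3 uncalled list genes with the lowest p between the fractions and between the sexes, and, for 4 members, the 3 genes with the most similar profile. The named dissociation, cell type and commitment marker genes, Nudt6, Fgfr2 and Fgfr3 were singled out after their values were seen.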

Additional observations from a re-analysis of the deposited data

Results flagged for a closer look

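Among 36 groups of 4 libraries examined by Dixon's test at the 95% level, where chance alone marks about 1 group in 20, 2 were marked. Fgfr4 in male Myf5Low replicate 1, at 682 CPM, lay above the other Myf5Low libraries, with a gap of 0.85 of the whole range. Hgf in female Myf5Low replicate 1, at 1.65 CPM, was the only female library with reads of this gene; with the other 3 at 0, any read there gives this mark, so the chance rate does not apply to it. The causes were not tested.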

How the results depend on the processing

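For the members and named list genes, 31 log2 fold changes were recomputed, giving 432 alternative values: 396 kept direction and side of the threshold, 7 lost a call, 19 gained one and 10 changed sign, the last in Spred1 and Fgfr1 alone. Between the fractions, Fgfr1 was -0.01 with the filter at a mean of 50 counts and -0.10 to 0.10 without single libraries, and Spred1 was -0.09 to 0.26. Between the sexes Spred1 was -0.14 to 0.23. The number of members called between the sexes was 1; it was 2 without a filter, 2 by DESeq2, 0 with summed pools and 0 to 2 without single libraries. Each second call was Hgf, which passed the filter through male libraries alone, and without female Myf5Low replicate 1 Hgf was the only call; counting Spry2 alone, the number was 0 or 1 throughout. In the remaining 4 comparisons it was 0 in all fits run.

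Over all genes, calls between the fractions moved from 141 to 291 without a filter, 234 by DESeq2 and 82 to 243 without single libraries. In females they moved from 39 to 167, 112 and 9 to 117 under the same alternatives, and to 77 in a fit of females alone. In males they moved from 20 to 111, 72 and 8 to 74, and to 2 in a fit of males alone. Between the sexes they moved from 194 to 477, 371 and 82 to 558, and for the interaction from 0 to 14, 2 and 0 to 8. The causes were not tested.

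Taken over all 11730 genes, deviations from the group means were nearly uncorrelated between libraries of 1 pool number (0.0282 in females and -0.0116 in males). Each value is 1 correlation over all genes tested, so it does not describe single genes. With the pool as a replicate block, 136 genes were called between the fractions, 33 in females, 26 in males and 0 for the interaction. The block called 0 members in each; it called Ier3 (1.01, edgeR adjusted p 0.00879) between the fractions. Depth limits Hgf, Fgf2 and Spry4, which had at most 39, 65 and 44 counts in any library.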
